A study of Rattus norvegicus with 144 samples.

Results

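The response examined here is the amino acid arm of the integrated stress response, read through 10 genes: Atf4, Ddit3, Atf3, Trib3, Ppp1r15a, Sesn2, Chac1, Asns, Phgdh and Psat1. A probe set belonged to the response when its platform annotation gave 1 of these symbols. On the larger of the 2 array types these genes had 13 probe sets, among 31042 probe sets and 14217 named genes. On the smaller type 9 of them had 11 probe sets, among 15866 probe sets and 10411 named genes, and Sesn2 was not analysed there. Trib3 had 3 probe sets, Sesn2 had 2, and each other gene had 1.

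The animals were male Sprague Dawley rats of 8 to 10 weeks that received AMG A or AMG B by mouth once a day. These compounds are known here only by code names, and the series describes their pharmacology as antiangiogenic. The doses were 0, 3 and 30 mg/kg in the AMG A study and 0, 3 and 60 mg/kg in the AMG B study. Liver in both studies, and adrenal gland under AMG B, came from days 1, 4 and 14, while pancreas in both, and adrenal gland under AMG A, came from day 14. Each of the 36 groups held 4 animals, 72 animals gave 144 arrays, and the 0 mg/kg animals of the same study and day were the controls. RNA came from whole tissue, and the labels give no genotype or transgene. Liver of AMG A rats was measured on the smaller array type and every other tissue on the larger, so levels were not compared between them.

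As background, ATF4 is a transcription factor whose mRNA is translated more when the initiation factor eIF2 is phosphorylated, for instance when uncharged tRNA accumulates or unfolded protein builds up in the endoplasmic reticulum. It switches on genes for amino acid synthesis, uptake and tRNA charging, together with factors that prolong or end the response. The exocrine pancreas makes large amounts of secretory protein and is known for a high basal use of this pathway. ATF4 itself is controlled largely at translation.

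All values are scores that the authors had standardised for each probe set, so that 0 is the mean of the probe set over the arrays and 1 unit its standard deviation. Differences between scores are no fold changes and give no quantity of RNA, and scores of different genes do not rank their transcripts. Array SDs of the scores ran from 0.793 to 1.15 in liver and adrenal of the larger type and from 1.15 to 1.64 in pancreas, apart from 1 pancreas array at 1.99 (AMG B, 3 mg/kg, animal 30). Among the hepatocyte, adrenal cortex and pancreatic acinar marker lists, that of the labelled tissue had the highest mean score on every array. Lists of other cells were not part of that check, and some exceeded the acinar list in pancreas. Among the pancreas arrays of AMG B, animal 33 at 60 mg/kg and animals 29, 30 and 31 at 3 mg/kg had high lymphocyte genes, and animal 36 at 60 mg/kg had high skeletal muscle genes. The dose comparison in pancreas at 60 mg/kg was also fitted without both 33 and 36, as given below. The differences between tissues were not. In whole tissue, fewer cells of a type and less RNA per cell cannot be told apart.

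In 24 comparisons of a dose with its own control, 14 of 300 tests of member probe sets passed limma's test at an adjusted p under 0.05, in 4 comparisons. At 60 mg/kg of AMG B on day 14 the members rose in pancreas (8 probe sets) and in adrenal gland (4 probe sets). Chac1 fell in liver on day 4 at both doses of AMG A. In the other 20 comparisons no member passed, and the lowest adjusted p among them was 0.120. The heat map of all dose comparisons shows the rises in 2 tissues at the high dose of AMG B. Calls of all probe sets were also most frequent there, at 9.88% in pancreas and 5.96% in adrenal gland. In liver at that dose and day 5.66% passed. For AMG A in liver on day 4 the share was 0.0693% at 30 mg/kg and 0.0126% at 3 mg/kg.

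**Figure D1:**
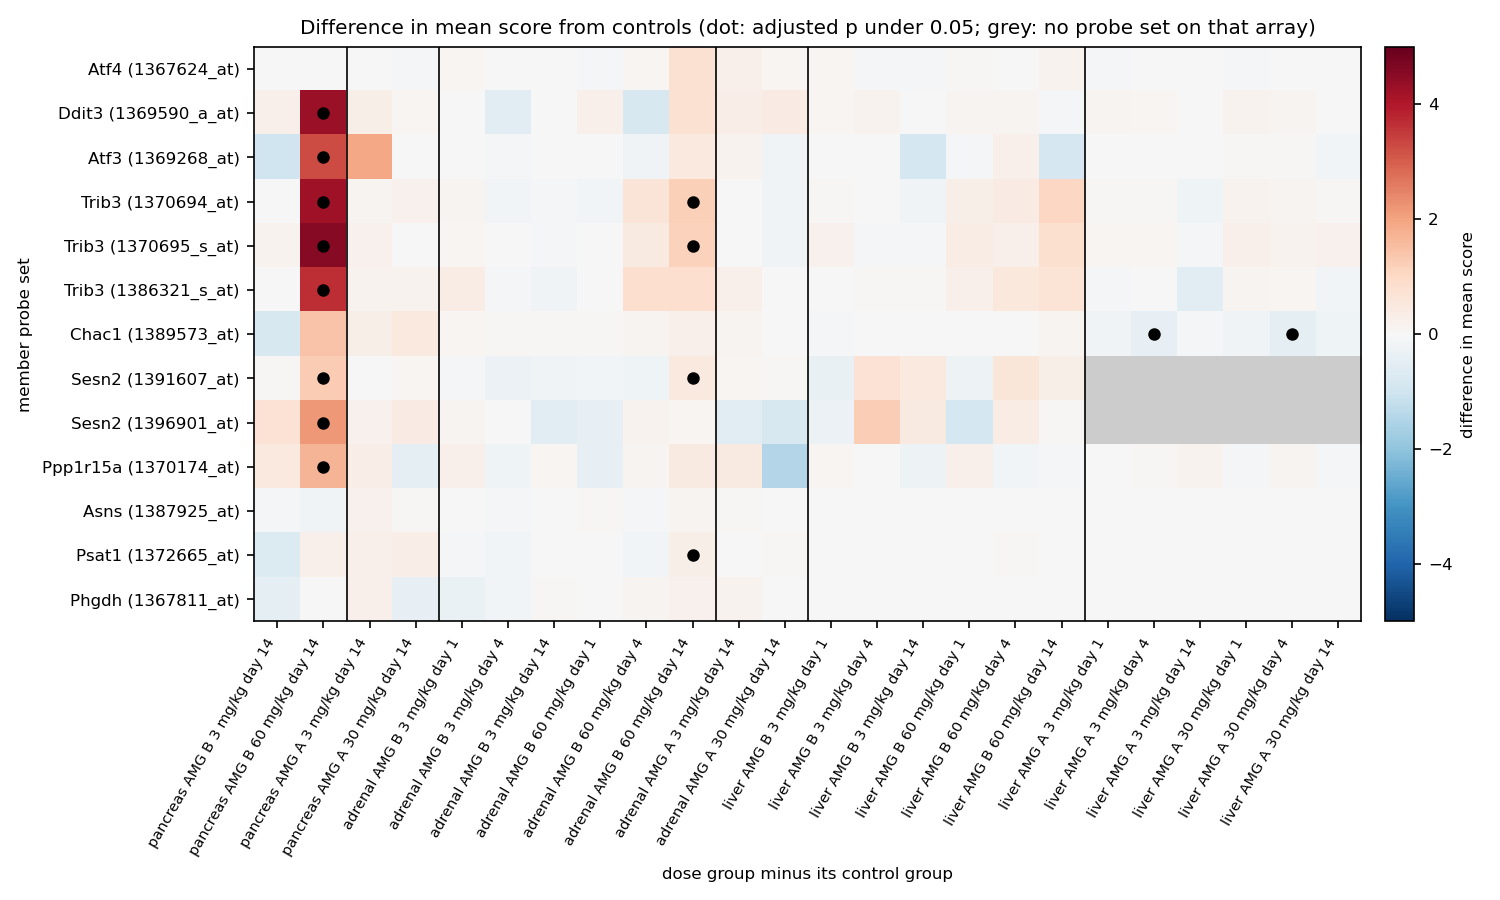
Difference in score (dose minus control) of each member probe set, down the page, in the 24 dose comparisons, across the page. Dots mark an adjusted p under 0.05, which 14 of 300 tests reached, and grey marks Sesn2 on the smaller array type.

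In pancreas, 60 mg/kg of AMG B for 14 days raised Ddit3, Trib3, Atf3, Ppp1r15a and Sesn2. Atf4 itself, the biosynthetic enzymes Asns, Phgdh and Psat1, and Chac1 did not pass the test. By limma 8 of 13 member probe sets and 5 of 10 genes passed, all higher, where 9.88% of all probe sets passed and 4.98% passed as higher. Of the 13 differences 12 were positive, with a median of 1.70 against -0.017 over all probe sets. In 7 of the 13 every treated animal lay above every control, which held for 8.37% of all probe sets.

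Atf4, the factor at the head of the response (chromosome 7, 113684681 to 113686739 in GRCr8), averaged 2.12 ± 0.23 at 60 mg/kg and 2.10 ± 0.10 in controls (SD, n = 4 each). The difference was 0.017, with a 95% interval of -0.38 to 0.41 (adjusted p = 0.970).

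Ddit3 (chromosome 7, 65001695 to 65006517) encodes CHOP, a transcription factor downstream of ATF4 that is linked to cell death under lasting stress. Its scores were 1.67, 7.22, 1.30 and 5.58 in animals 33 to 36 at 60 mg/kg, against -0.49, -0.27, -0.23 and -0.52 in the control animals 25 to 28. The groups did not overlap, and animals 34 and 36 lay far above 33 and 35. The difference was 4.32 (SE 0.836, adjusted p = 0.0034), and the exact permutation test, two-sided, gave 0.0286, the smallest p that 4 against 4 allows. Animals at 3 mg/kg lay between -0.36 and 0.23, a difference of 0.26 from control (adjusted p = 0.951).

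Atf3 (chromosome 13, 105274103 to 105331653), a related factor induced by ATF4 and by many other stresses, scored 1.12, 6.33, 4.21 and 4.58 at 60 mg/kg, against 2.30, -0.29, 0.02 and 1.08 in controls. One treated animal, 33, lay inside the control range, and the other 3 lay above it. The difference of 3.28 (SE 0.863, adjusted p = 0.0210) lost its call when animal 26, 27 or 34 was left out, and ranged from 2.53 to 4.26 over all animals left out in turn. The exact permutation test, two-sided, gave 0.0571.

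Trib3 (chromosome 3, 161269939 to 161275533) encodes a pseudokinase that binds ATF4 and CHOP and restrains them. Its 3 probe sets moved alike, with differences of 4.23, 4.53 and 3.69 (adjusted p = 0.0079, 0.0100 and 0.0143). On its leading probe set, the one whose variance lies most between tissues, animals 33 to 36 scored 0.76, 5.06, 1.06 and 7.01 at 60 mg/kg, against 0.19, -0.64, -0.63 and 0.20 in controls. All treated animals lay above all controls on each of the 3 probe sets, and the same animals, 34 and 36, were high on all of them. At 3 mg/kg the scores on that probe set lay between -0.48 and 0.10, inside the control range.

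Ppp1r15a (chromosome 1, 105136521 to 105139596) encodes GADD34, which directs a phosphatase to eIF2 and so closes the feedback loop. Animals at 60 mg/kg scored 0.41, 2.73, 0.06 and 3.00, against -0.03, -0.24, -0.02 and -0.31 in controls. The groups did not overlap, although animal 35 lay only just above the highest control. The difference was 1.70 (SE 0.502, adjusted p = 0.0372), and leaving out any 1 of the 4 controls, or animal 34 or 36, ended the call.

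Sesn2 (chromosome 5, 149986304 to 150005255) encodes a leucine-binding protein that restrains the growth kinase complex mTORC1. On its leading probe set, animals at 60 mg/kg scored 0.05, 1.84, -0.14 and 1.20, against -0.76, -0.92, -0.20 and -0.28 in controls. Every treated animal lay above every control. The difference was 1.28 (SE 0.326, adjusted p = 0.0181), and on its other probe set 2.15 (SE 0.555, adjusted p = 0.0189). Without animal 36 neither probe set passed. The first was also lost without 26 or 34, and the second without control 28.

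Chac1 (chromosome 3, 126796131 to 126799352), which breaks down glutathione and is a sensitive ATF4 target, scored 0.68, 4.30, 1.98 and 7.11 at 60 mg/kg, against 1.88, 1.26, 2.47 and 2.70 in controls. Animals 34 and 36 again lay above all controls, but animal 33 lay below them. The difference of 1.44 did not pass (95% interval -0.41 to 3.30, adjusted p = 0.323).

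**Figure D2:**
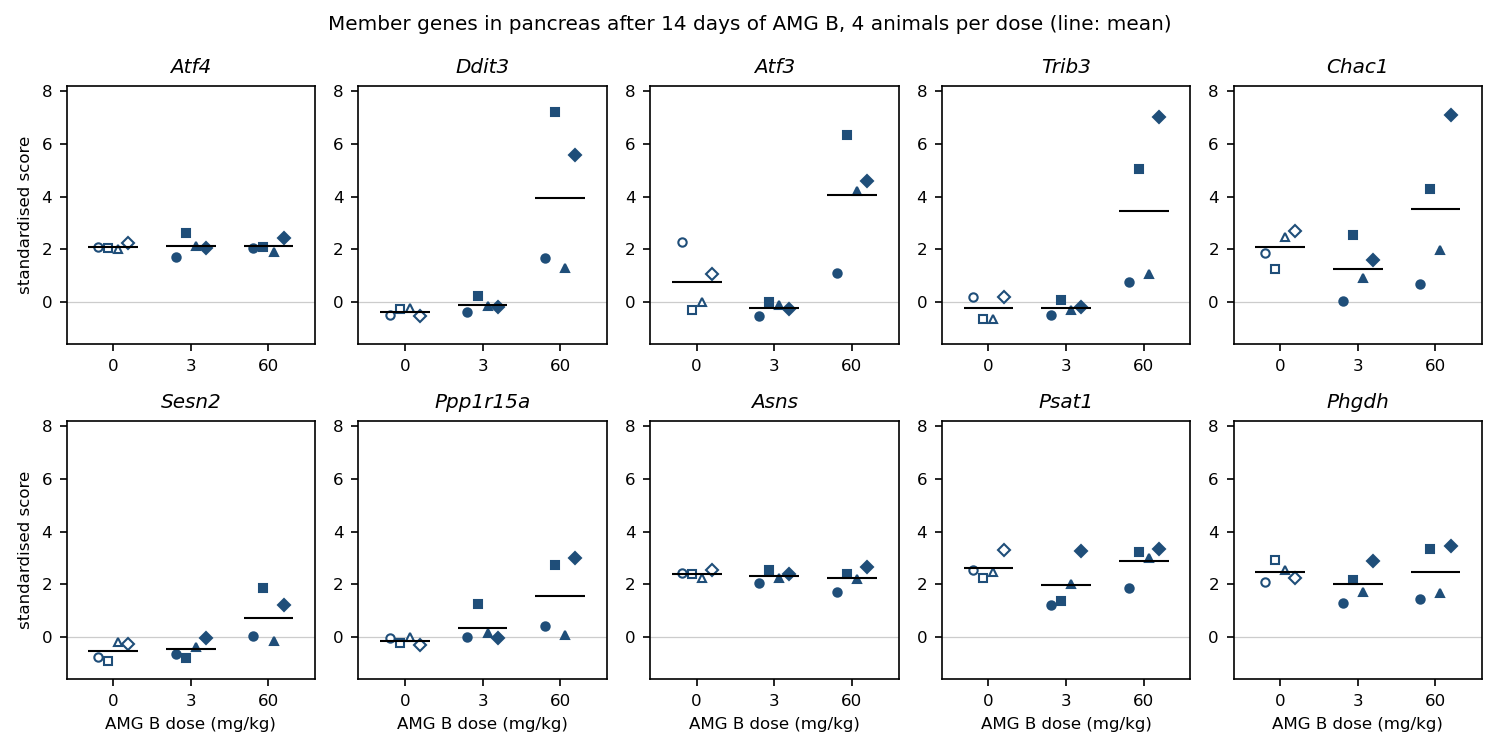
Scores of the leading probe set of each member in pancreas of the AMG B study on day 14, by dose (0, 3 and 60 mg/kg), with open markers for controls, a marker shape per animal within a group and a line at the mean (n = 4 each). At 60 mg/kg the Ddit3 scores span 1.30 to 7.22 and the control scores -0.52 to -0.23.

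None of the 3 enzymes of amino acid synthesis passed. Asns (chromosome 4, 36752061 to 36769970), which makes asparagine and is a textbook ATF4 target, averaged 2.24 ± 0.40 at 60 mg/kg and 2.40 ± 0.12 in controls (SD, n = 4 each, adjusted p = 0.673). Phgdh (chromosome 2, 188595700 to 188624789), the first enzyme of serine synthesis, averaged 2.47 ± 1.06 at 60 mg/kg and 2.45 ± 0.37 in controls (adjusted p = 0.983). Psat1 (chromosome 1, 222623553 to 222646187), the second enzyme, averaged 2.86 ± 0.69 at 60 mg/kg and 2.62 ± 0.46 in controls (adjusted p = 0.795). Within the 60 mg/kg group, Phgdh was 3.33 and 3.44 in animals 34 and 36 and 1.45 and 1.66 in animals 33 and 35, the same split as for Ddit3 and Trib3.

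Scores spread more among treated animals than among controls for most members that rose, with an SD of 2.92 for Ddit3 at 60 mg/kg and 0.15 in controls. The calls rest on a spread shared by all 24 pancreas arrays: fitted on the 8 arrays of the comparison alone, none of the 8 probe sets passed, and the lowest adjusted p was 0.0938, for Ddit3. The calls of Ddit3 and of the 3 Trib3 probe sets held when each of the 12 animals was left out in turn, with Ddit3 between 3.23 and 5.20. With animals 33 and 36 both left out, a setting chosen after the data were seen, the Ddit3 difference was 4.64 (adjusted p = 0.0084), Trib3 ranged from 3.28 to 3.97, and the Ppp1r15a call was lost (adjusted p = 0.107). In that setting Sesn2 passed on its leading probe set (1.39, adjusted p = 0.0480) and not on the other (1.78, adjusted p = 0.162).

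Markers of other cells moved in the same arrays. All 8 acinar enzyme genes fell, and their mean score was 1.74, 1.66, 1.55 and 1.60 at 60 mg/kg, against 2.79, 2.72, 2.30 and 3.12 in controls, with no overlap. Of the 5 islet genes 2 fell, with a median difference of -0.39 over the list. The lymphocyte list averaged 4.61 in animal 33 and at most -0.10 in the other 3 treated animals, against 0.0073 to 0.14 in controls. At 3 mg/kg it averaged 3.21, 1.26, 3.13 and -0.03 in animals 29 to 32, so high values were not limited to 1 animal or 1 dose. The skeletal muscle list averaged 4.05 in animal 36 and at most 0.0090 in the other 3, against 0.016 to 0.17 in controls. None of the lymphocyte, muscle, adipocyte or macrophage genes passed. Animals 34 and 36, high in Ddit3 and Trib3, had acinar means of 1.66 and 1.60, close to those of 33 and 35. The part of these cells in the member differences was not tested.

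Over the 12 pancreas arrays of the AMG B study, the scores of Trib3 and Ddit3 ran closely together, with Pearson's r of 0.939 on the leading Trib3 probe set. For the other members r was 0.925 for Ppp1r15a, 0.884 for Chac1, 0.883 for the leading Sesn2 probe set, 0.840 for Atf3, 0.605 for Phgdh, 0.533 for Psat1, 0.366 for Atf4 and 0.355 for Asns. The named genes most like Trib3 were G0s2 (r = 0.984), the cationic amino acid transporter Slc7a3 (0.984), Riok3 (0.981), Ppif (0.980) and Coq9 (0.976). These are descriptions over 12 arrays that share the dose groups, and animals 34 and 36 weigh heavily in each.

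The 10 members were looked up for 2 motifs in the 250 bases before their start sites in RefSeq's GRCr8 promoters: the ATF4 and C/EBP composite TGATGNAA and the cAMP response element TGACGTCA, each on both strands. Of 33469 promoters 3.403% held the first and 1.587% the second. Of the 10 members 9 had a promoter entry, and 3 of them held a match. Those 3 are shown because they held a match, and the matches were not tested against the changes in score. Capitals mark the match, and each is written 5′ to 3′ on the gene's strand.
Trib3, chr3:161275535-161275566, minus strand, match at -21 to -14: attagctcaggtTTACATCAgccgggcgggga
Chac1, chr3:126795952-126795983, plus strand, match at -167 to -160: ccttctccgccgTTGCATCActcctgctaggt
Ppp1r15a, chr1:105139643-105139674, minus strand, match at -66 to -59: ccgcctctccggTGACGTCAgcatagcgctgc
The Trib3 and Chac1 matches are the composite read on the opposite strand, and the Ppp1r15a match is the cAMP response element. These letters were not in the windows of Ddit3, Atf4, Asns, Sesn2, Psat1 and Phgdh.

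Genes around the members were read in lists by role at 60 mg/kg in pancreas, where 9.88% of all probe sets passed and 4.98% passed as higher. Against that share little can be read from counts of 1 to 3 genes, and a gene with several probe sets has more chances to pass. The aminoacyl-tRNA synthetases, which load tRNA with amino acids, held the most calls: 8 of 13 genes rose and 2 fell, with a median difference of 0.97 over the list and 0.041 over all genes. Gars1 rose by 3.93 (adjusted p = 0.0071), Lars1 by 3.03 (adjusted p = 0.0130) and Nars1 by 2.53 (adjusted p = 0.0051), while both passing probe sets of Cars1 fell, by 1.98 and 2.43. Of 7 stress outputs 4 rose, among them the lipoprotein receptor Vldlr (4.24, adjusted p = 0.000888) and the secreted factors Gdf15 (2.35, adjusted p = 0.0058), Stc2 (1.81, adjusted p = 0.0093) and Fgf21 (2.61, adjusted p = 0.0319).

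Of 5 partner factors 2 rose, and Cebpg, which pairs with ATF4, did so by 3.53 (adjusted p = 0.0035). Among 8 amino acid transporters Slc7a3 alone passed, at 3.92 (adjusted p = 0.0124), a count near the share over all probe sets. Of 6 genes for eIF2, its kinases and its phosphatase subunits, Eif2s1 and Ppp1r15b rose by 1.92 and 1.33, and the haem-regulated kinase Eif2ak1 fell by 1.69 (adjusted p = 0.0049). Of 7 enzymes of serine, one-carbon, proline and transsulfuration metabolism 2 rose, Shmt2 by 0.67 and Mthfd2 by 0.51. Of 11 immediate early genes 3 rose, Egr1 by the most at 2.70 (adjusted p = 0.0112). Immediate early genes respond to many stimuli besides ATF4.

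At 3 mg/kg of AMG B no member passed in pancreas (lowest adjusted p 0.693, 0 of 13 at an unadjusted p under 0.05), where 0.0226% of all probe sets passed. In 3 of these 4 animals the lymphocyte list was high, as given above, and its part in this comparison was not tested. Under AMG A, 0.00322% passed at 3 mg/kg and the same share, 0.00322%, at 30 mg/kg, and again no member did. At 30 mg/kg of AMG A, Ddit3 averaged -0.44 ± 0.33 and its controls -0.54 ± 0.42, and Atf4 averaged 2.09 ± 0.27 and its controls 2.19 ± 0.23 (SD, n = 4 each). The widest AMG A difference was that of Atf3 at 3 mg/kg, where animals scored 1.29, 4.00, 3.25 and 0.16, against 0.50, 0.17, 0.15 and 0.15 in controls. With 1 treated animal inside the control range, the difference of 1.93 had an unadjusted p of 0.0364 and an adjusted p of 1. At 30 mg/kg Atf3 lay between -0.27 and 1.00, overlapping the controls.

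In adrenal gland, 60 mg/kg of AMG B for 14 days raised Psat1, Trib3 and Sesn2. All 13 member differences were positive, with a median of 0.49 against 0.00087 over all probe sets, and 4 probe sets of 3 genes passed by limma. Of all probe sets 5.96% passed and 3.12% passed as higher.

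Psat1 scored 0.07, -0.23, 0.11 and -0.16 in animals 33 to 36 at 60 mg/kg, against -0.40, -0.33, -0.40 and -0.31 in controls. All treated animals lay above all controls, and the difference, 0.31 (SE 0.0682, adjusted p = 0.0036), kept its call whichever of the 36 animals was left out. Trib3 scored 2.71, 0.97, 0.20 and 1.25 on probe set 1370694_at, against -0.26, 0.41, -0.05 and 0.27 in controls, with animal 35 inside the control range. The difference was 1.19 (SE 0.350, adjusted p = 0.0333) there, 1.16 (SE 0.318, adjusted p = 0.0214) on 1370695_s_at and 0.85 (SE 0.382, adjusted p = 0.204) on the leading probe set, 1386321_s_at.

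Sesn2 scored 0.31, -0.32, -0.16 and -0.09 on its leading probe set, against -0.84, -0.57, -0.22 and -0.60 in controls. Animal 34 overlapped the highest control, and the difference was 0.49 (SE 0.147, adjusted p = 0.0370). The other Sesn2 probe set differed by 0.11 (adjusted p = 0.969), so the 2 probe sets disagree here. Exact permutation tests, two-sided, gave 0.0286 for Psat1, 0.0571 for Sesn2 and 0.0857 for both passing Trib3 probe sets. The Trib3 and Sesn2 calls ended without animal 25 or 33, among others, which left Psat1 as the only gene called, and on the 8 arrays of the comparison alone none of the 4 passed (Psat1 adjusted p = 0.249).

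Other members lay near the threshold. Atf4 averaged 0.52 ± 0.35 at 60 mg/kg and -0.23 ± 0.19 in controls (SD, n = 4 each), with no overlap and a difference of 0.74 (adjusted p = 0.0534). Chac1 differed by 0.24 (adjusted p = 0.0605) and Asns by 0.16 (adjusted p = 0.0677), also with no overlap. With Psat1, 4 of 13 member probe sets showed no overlap, against 10.3% of all probe sets in either direction. With 1 value per gene in place of all probe sets, Atf4, Chac1 and Asns passed, as did Psat1, whether by the leading probe set or by the mean of the probe sets. The Trib3 call ended with the leading probe set (adjusted p = 0.165), and the Sesn2 call ended with the mean of the probe sets (adjusted p = 0.656). Ddit3, which rose in pancreas, scored 4.12, -0.15, 0.51 and 1.30 at 60 mg/kg, against 0.79, 0.05, 0.35 and 1.58 in controls. Animal 33 alone lay above the controls, and the difference of 0.76 did not pass (adjusted p = 0.420).

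The same lists of related genes were read in adrenal gland at this dose and day, where 5.96% of all probe sets passed and 3.12% passed as higher. Little can be read from a single call in a list of 6 to 11 genes. The aminoacyl-tRNA synthetases again held the most calls: 10 of 13 genes had a probe set that rose, with a median difference of 0.52 over the list and 0.00036 over all genes. Mars1 rose by 1.49 and 2.23 on 2 probe sets, Aars1 by 1.43 and Nars1 by 1.05. Iars1 had 1 probe set that rose by 0.61 and 1 that fell by 1.26. Cebpg rose by 0.62 (adjusted p = 2e-06) and Atf5 by 0.14 among the 5 partner factors, and Slc7a1 by 0.65 among 8 transporters. Of 7 stress outputs Gdf15 rose by 2.66, Vldlr by 1.21, 1.01 and 1.54 on its passing probe sets, and Eif4ebp1 by 0.47. Ppp1r15b rose by 0.69 among the 6 genes around eIF2, Egr2 by 0.61 among 11 immediate early genes, and none of 7 enzymes of serine and related metabolism passed.

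In the same adrenal comparison 2 of 6 macrophage genes fell, where 5.96% of all probe sets passed in either direction, with list means of -0.94, -1.07, 0.55 and -0.93 in animals 33 to 36, against -0.05, -0.12, -0.20 and -0.29 in controls. Animal 35 had an adipocyte list mean of 2.14, where the other treated animals had at most 0.49 and controls at most 0.18. Its medulla list mean was 0.24, where the other treated animals had 1.73 to 2.35 and controls 1.34 to 1.74. No adipocyte or medulla gene passed, and the part of these cells in the member differences was not tested.

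On the earlier days no member passed in adrenal gland. At 60 mg/kg 0.335% of all probe sets passed on day 1 and 0.889% on day 4, none of them a member (0 and 1 of 13 at an unadjusted p under 0.05). Psat1 differed by 0.0041 on day 1, by -0.14 on day 4 and by 0.31 on day 14. On probe set 1370694_at Trib3 differed by -0.14, 0.64 and 1.19 on those days, and Atf4 by -0.086, 0.089 and 0.74.

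The change in the 60 mg/kg difference with time was itself tested. From day 1 to day 14 all 13 changes were positive and 5 had an unadjusted p under 0.05, but no member passed by limma, the lowest being Psat1 at 0.30 (adjusted p = 0.114), where 1.16% of all probe sets passed. From day 1 to day 4 0.00644% passed and no member did. At 3 mg/kg 0.00644% passed on day 1, 0.0354% on day 4 and 0.00322% on day 14, none of them a member and none at an unadjusted p under 0.05. Under AMG A on day 14 no probe set of any gene passed in adrenal gland, 0.0% at 3 mg/kg and 0.0% at 30 mg/kg. There Ppp1r15a had the lowest member adjusted p, 0.927, at 30 mg/kg.

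In liver under AMG B no member passed at any dose or day. At 60 mg/kg the share of all probe sets that passed was 0.0548% on day 1, 0.68% on day 4 and 5.66% on day 14, and at 3 mg/kg 0.00966%, 0.0226% and 0.0% on those days. On day 14 at 60 mg/kg 3 of 13 member probe sets had an unadjusted p under 0.05. One was Atf3, with scores of 0.08, -0.10, 0.10 and -0.41, against 0.06, 2.17, -0.08 and 0.95 in controls. The groups overlapped, and the negative difference of -0.86 (adjusted p = 0.120) ran opposite to pancreas.

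The others were 2 Trib3 probe sets. On 1370694_at Trib3 scored 3.75, 0.96, 1.19 and 0.72 at 60 mg/kg, against 1.25, 0.44, -0.49 and 1.31 in controls, a difference of 1.03 (adjusted p = 0.185). Animal 33 alone lay above the controls. Asns, Phgdh and Psat1 differed by at most 0.026 in size. Asns lay between -0.455 and -0.445 in treated animals and between -0.488 and -0.464 in controls, with no overlap. Of all probe sets 9.79% showed no overlap, in either direction. The score unit of Asns is set mostly by tissue, with 98.6% of its variance between tissues, so small scores there do not mean small changes within liver. Among the lists, where 5.66% of all probe sets passed, Slc1a4 rose by 1.67, Gpt2 by 1.12, Nupr1 by 0.37 and Junb by 0.52, and Atf5 fell by 0.90. Of the synthetases Eprs1 alone rose, by 0.92 and 1.92 on 2 probe sets. Of 6 macrophage genes 4 fell, and so did both blood genes read. The change in the 60 mg/kg difference from day 1 gave no member call to day 4 (0.00322% of all probe sets) or to day 14 (0.193%), with 1 member probe set at an unadjusted p under 0.05 in each.

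In liver under AMG A, Chac1 fell on day 4 and no other member passed. Chac1 scored -0.30, -0.05, -0.14 and 0.04 at 0 mg/kg, the control group that both doses share, -0.57, -0.42, -0.54 and -0.64 at 3 mg/kg, and -0.56, -0.53, -0.61 and -0.58 at 30 mg/kg. Every dosed animal lay below every control. Of all probe sets 5.67% showed no overlap at 30 mg/kg and 3.84% at 3 mg/kg, in either direction. The Chac1 difference was -0.46 at 30 mg/kg (SE 0.0764, adjusted p = 0.0095) and -0.43 at 3 mg/kg (adjusted p = 0.0380), and the exact permutation test, two-sided, gave 0.0286 at each dose.

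These calls are scarce in the table: 0.0693% of all probe sets passed at 30 mg/kg and 0.0315% as lower, against 0.0126% at 3 mg/kg, where all that passed were lower (0.0126%). The 3 mg/kg call ended when any of 28 of the 36 animals was left out, and the 30 mg/kg call without animal 3006, 3008 or 3032. The controls were themselves higher on day 4 than on the other days, with means of -0.36 ± 0.06 on day 1, -0.11 ± 0.15 on day 4 and -0.38 ± 0.13 on day 14 (SD, n = 4 each), while the 30 mg/kg means lay between -0.60 and -0.53 on all 3 days. Days were not tested against each other within the controls. At 30 mg/kg Chac1 differed by -0.18 on day 1 (adjusted p = 0.353) and by -0.22 on day 14 (adjusted p = 0.196). The plot of Chac1 in liver shows the day 4 controls as the group that stands off.

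**Figure D3:**
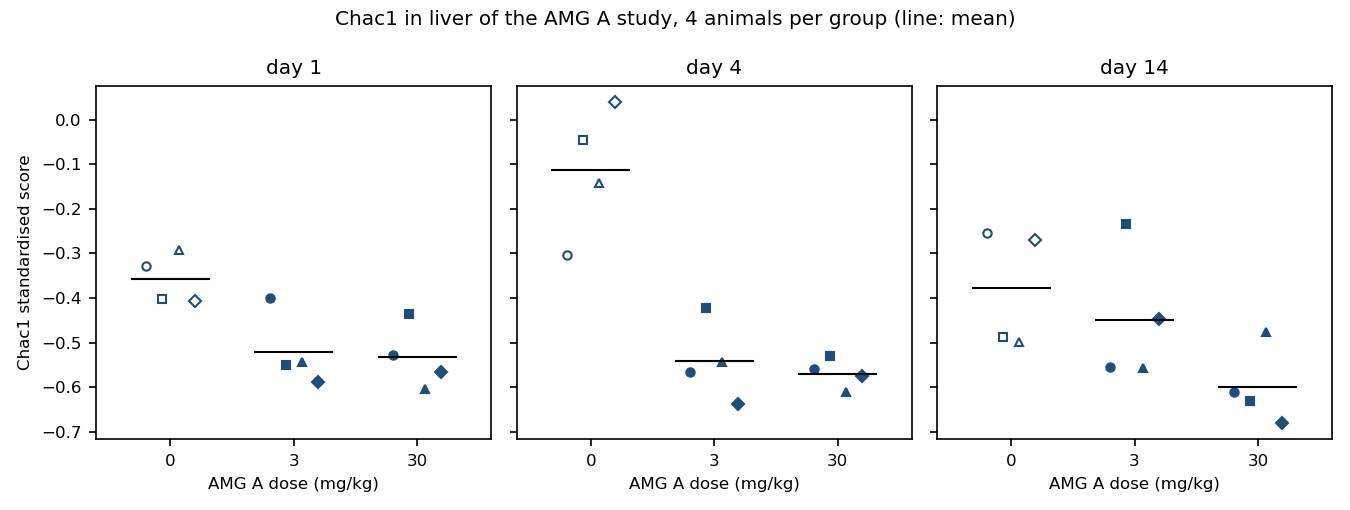
Chac1 scores in liver of the AMG A study by day (1, 4 and 14) and dose (0, 3 and 30 mg/kg), with open markers for controls and a line at each mean (n = 4 each). On day 4 the dosed animals lie between -0.64 and -0.42 and the controls between -0.30 and 0.04.

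The test of that change with time did not pass: the 30 mg/kg difference of Chac1 changed by -0.28 from day 1 to day 4 (adjusted p = 0.810) and by -0.047 to day 14, and 0.0% of all probe sets passed in each of these comparisons (1 member probe set unadjusted in each). Elsewhere in this liver 0.366% of all probe sets passed at 30 mg/kg on day 1 and 0.353% on day 14, and 0.0378% and 0.0063% at 3 mg/kg on those days. The lowest member adjusted p there was 0.148, for Ddit3 at 30 mg/kg on day 1, which averaged -0.57 ± 0.03 with controls at -0.74 ± 0.11 (SD, n = 4 each). Up to 2 member probe sets had an unadjusted p under 0.05 in these 4 comparisons.

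The effect of 60 mg/kg of AMG B on day 14 was then compared between tissues of the same animals. The pancreas difference exceeded the liver difference by 4.39 for Ddit3 (adjusted p = 0.0142) and by 4.14 for Atf3 (adjusted p = 0.0033), where 9.31% of all probe sets passed in either direction. It exceeded the adrenal difference by 3.56 for Ddit3 (adjusted p = 0.0464) and by 2.78 for Atf3 (adjusted p = 0.0455), where 9.55% passed in either direction. For Trib3 the excess over liver was 3.00 to 3.73 and over adrenal 2.84 to 3.37, and no Trib3 probe set passed (lowest adjusted p 0.0654 and 0.0944). Between adrenal and liver no member passed, 0 of 13 also without adjustment, where 1.04% of all probe sets did.

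With the animal number as a block, the Ddit3 and Atf3 excess over liver passed and that over adrenal did not (adjusted p = 0.0762 and 0.0594). The pancreas minus adrenal calls of both genes also ended without any 1 of 6 of the 8 animals, among them 34 and 36. The excess over liver held for Atf3 whichever animal was left out, and ended for Ddit3 without animal 36 (adjusted p = 0.0555). For AMG A at 30 mg/kg, no member passed between pancreas and adrenal (lowest adjusted p 0.736, 0 of 13 unadjusted), where 0.00644% of all probe sets did.

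An animal high in one tissue was not always high in another. Trib3 was highest in animal 33 in adrenal gland and liver, on all 3 probe sets, and in animal 36 in pancreas, where animal 33 was among the low pair. The plot of the same animals in 3 tissues shows this crossing for Trib3 and Ddit3.

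**Figure D4:**
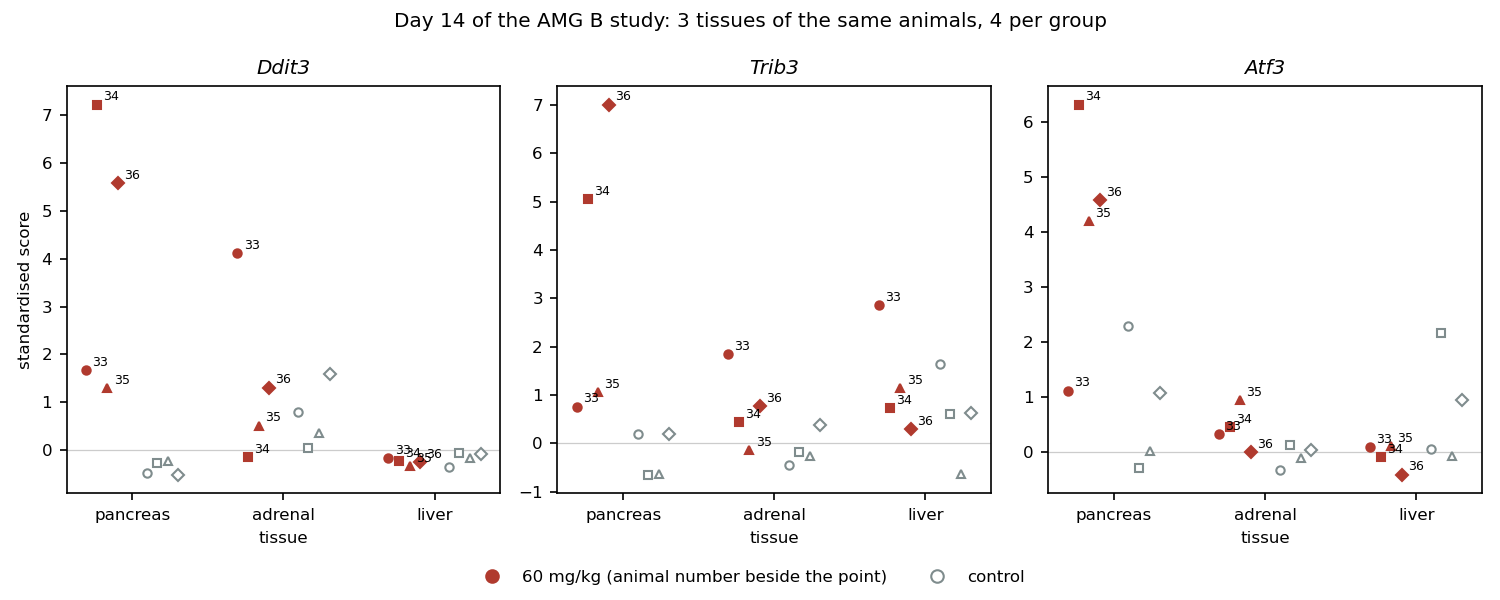
Scores of the leading probe sets of Ddit3, Trib3 and Atf3 on day 14 of the AMG B study in pancreas, adrenal gland and liver, with 60 mg/kg (filled, numbered by animal) left of control (open) in each tissue. Ddit3 in animal 33 scores 1.67 in pancreas and 4.12 in adrenal gland, and in animal 34 it scores 7.22 and -0.15.

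The compounds could be compared at a matched dose only at 3 mg/kg on day 14, in adrenal gland and pancreas, in 26 member tests adjusted over all probe sets. In adrenal gland the AMG A minus AMG B differences lay between -0.04 and 0.42, with 95% intervals reaching from -2.08 to 2.74 (lowest adjusted p 1, 0 of 13 unadjusted), and 0.00644% of all probe sets passed. In pancreas they lay between -0.49 and 2.93, with intervals reaching from -3.01 to 5.47, and no probe set of any gene passed (0.0%). The largest was Atf3 at 2.93 (95% interval 0.38 to 5.47, adjusted p = 0.521), the 1 member of 13 with an unadjusted p under 0.05. For Ddit3 in pancreas the difference was 0.04 (95% interval -2.43 to 2.50), too wide to show that the compounds act alike. The high doses differed, so their values stand side by side only: Ddit3 in pancreas averaged -0.44 ± 0.33 at 30 mg/kg of AMG A and 3.94 ± 2.92 at 60 mg/kg of AMG B (SD, n = 4 each).

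In untreated animals some members were highest in pancreas and others were not, as a description with no test. The share of variance lying between tissues was taken over all arrays of the larger table, dosed animals included. It was 98.6% for Asns, 92.3% for Atf4, 90.0% for Psat1 and 86.3% for Phgdh. It was 72.2% and 36.6% on the 2 Sesn2 probe sets, 61.9% for Chac1, 26.4% for Atf3, 15.5% for Ppp1r15a and 9.28% for Ddit3, and at most 5.09% for a Trib3 probe set. Asns averaged 2.40 ± 0.12 in control pancreas of the AMG B study (n = 4), -0.39 ± 0.06 in adrenal gland and -0.47 ± 0.01 in liver (SD, n = 12 each). Atf4 averaged 2.10 ± 0.10, -0.28 ± 0.15 and -0.36 ± 0.17 in the same tissues, where adrenal gland and liver overlap. Psat1 and Phgdh were likewise highest in pancreas, at 2.62 ± 0.46 and 2.45 ± 0.37. These 4 genes, all highest in pancreas, are among the 5 that did not pass there at 60 mg/kg. A link between control level and response was not tested. Their score unit is set mostly by tissue, so small score differences do not mean small changes within pancreas.

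Control Chac1 averaged 2.08 ± 0.64 in pancreas, 0.08 ± 0.09 in liver and -0.63 ± 0.17 in adrenal gland, with no overlap between these 3. Ddit3 was highest in adrenal gland at 0.68 ± 0.46 in the AMG B study, but its adrenal controls in the AMG A study averaged -0.25 ± 0.21 (n = 4), within reach of liver (-0.30 ± 0.20) and pancreas (-0.38 ± 0.15). Ppp1r15a was also highest in adrenal gland, at 0.51 ± 1.01, with single animals up to 3.16. Atf3 averaged 0.78 ± 1.17 in pancreas, 0.23 ± 0.70 in liver and -0.36 ± 0.25 in adrenal gland, and these ranges overlap. Trib3 on its leading probe set averaged 0.30 ± 0.68 in liver, -0.19 ± 0.40 in adrenal gland and -0.22 ± 0.48 in pancreas, also overlapping. Its tissues overlapped on 1370695_s_at as well. On 1370694_at every pancreas control (-0.93 ± 0.25) lay below every liver control (0.22 ± 0.62), and adrenal gland (-0.12 ± 0.32) overlapped both. The 2 Sesn2 probe sets gave opposite orders, with liver highest at 1.02 ± 0.54 on 1 and lowest at -0.91 ± 0.47 on the other.

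**Figure D5:**
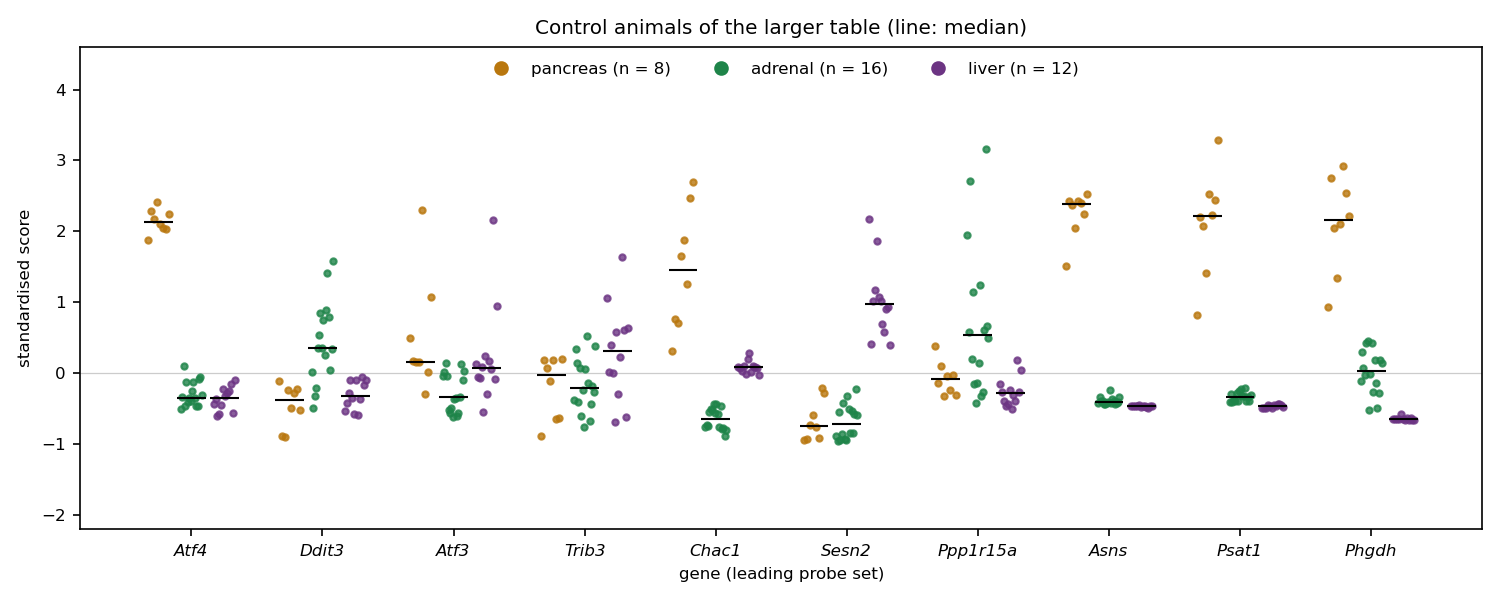
Scores of the leading probe set of each member in control animals on the larger array type, for pancreas (8 arrays), adrenal gland (16) and liver (12), with a line at the median. Asns scores 1.51 to 2.53 in pancreas, -0.43 to -0.24 in adrenal gland and -0.49 to -0.46 in liver.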

How the data were processed

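Liver, adrenal gland and pancreas RNA (Qiagen RNeasy midi, one-cycle biotin labelling, per the labels' protocols) was measured on 2 array types. The deposited values are scores: from the values themselves, the authors standardised every probe set (mean close to 0, SD close to 1), over all 144 arrays where a probe set is in both tables. Software and scaling before that step are unknown here, as is signal over background, and precision is limited by the number of arrays. 0 value columns were left unused.

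The titles of the day 14 adrenal and pancreas controls give no study, so it was taken from animal numbers shared with labelled livers. Nothing in the labels says whether litters or cages were shared. Symbols came from the platform annotation (20826 probe sets with 1 symbol, 436 with several and 9780 with none in the larger table, with 12783, 312 and 2771 in the smaller). Coordinates and promoters came from RefSeq tables of GRCr8. Promoter sequence of Atf3 was not used here.

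Every combination of tissue, study, dose and day was a term of a linear model (limma 3.58.1 in R 4.3.3: lmFit, contrasts.fit, eBayes with trend) over all probe sets. Dose, day and compound contrasts were fitted per tissue and table, and tissue differences in a joint fit of the day 14 arrays of a study on the larger type. The 36 contrasts were two-sided, Benjamini-Hochberg adjusted over all probe sets, at a threshold of 0.05. Python 3.11.15, pandas 2.3.3, numpy 2.4.6, scipy 1.17.1, matplotlib 3.10.9 and data.table (version 1.17.8) were also used. The fit was also run on simulated scores in which all groups of a probe set had the same spread. That run gives no measure of calls where the spread was unequal, as for Ddit3 in pancreas.

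Members, related gene lists, markers and tests were chosen with earlier results of these data known. All member probe sets past the threshold are described by animal, other members by their leading probe set (the largest share of variance between tissues), and listed genes where they passed. For length, not every listed gene that passed is printed.

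Animal numbers tie tissues of 1 animal: deviations from the group mean correlated at a median of 0.029 between pancreas and adrenal gland, 0.015 between pancreas and liver and 0.042 between adrenal gland and liver of the same animal, against -0.0092, -0.0059 and -0.011 for different animals. Alternatives were quantile normalization, no trend, the leading probe set or the mean of the probe sets per gene, only the groups compared, the animal as a block and each animal left out.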

Additional observations from a re-analysis of the deposited data

Results flagged for a closer look

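The pancreas effects on Ddit3 and Atf3 exceeded those in adrenal gland and liver by a test of the difference itself. The excess over adrenal gland ended in the settings given below. In each comparison 2 of 13 member probe sets passed, both with the larger difference in pancreas. Of all 31042 probe sets 9.55% passed for adrenal gland and 9.31% for liver, in either direction. A positive excess in pancreas passed for 1161 probe sets against adrenal gland and 1082 against liver. The excess of the 60 mg/kg AMG B effect in pancreas over that in adrenal gland was 2.783 for Atf3 and 3.565 for Ddit3, and the excess over liver was 4.139 for Atf3 and 4.395 for Ddit3, each on the score scale and each past limma's threshold. All 4 compare tissues of the same 8 animals on day 14. With the animal number as a block, the excess over liver passed for both genes and that over adrenal gland for neither (adjusted p = 0.0594 for Atf3 and 0.0762 for Ddit3). The excess over adrenal gland also ended under quantile normalization (adjusted p = 0.1165 for Atf3 and 0.1201 for Ddit3) and, for each gene, without any 1 of 6 of the 8 animals. The 14 called dose differences gave 28 sets of 4 scores, 1 per probe set and group, which share groups of animals. In none of them did a single animal stand far enough from the rest to pass Dixon's test. That test looks for 1 animal apart, so high scores shared by animals 34 and 36, as for Ddit3 in pancreas, can escape it. It does not show that the calls are independent of a few animals.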

How the results depend on the processing

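Counts here are of member genes called per comparison. For AMG B in pancreas the count was 5, also under quantile normalization, without a trend and by either rule for several probe sets. It was 4 with animals 33 and 36 both left out, 3 to 5 with each animal left out (3 without 26, 27, 34 or 36) and 0 with only the groups compared. For AMG B in adrenal gland it was 3, against 4 under quantile normalization, 5 by the leading probe set and 5 by the mean of the probe sets, 0 with only the groups compared and 1 to 5 with each animal left out (1 without 25 or 33, 5 without 34). For AMG A in liver it was 2, against 1 under quantile normalization, 0 with only the groups compared and 0 to 2 with each animal left out. For AMG B in liver it was 0, and 1 without animal 27 (Atf3). Day differences gave 0, and 1 without animal 34 (Psat1 in adrenal gland). AMG A in adrenal gland and in pancreas, and AMG A against AMG B, gave 0 under all settings run.

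Tissue differences under AMG B gave 4, against 2 under quantile normalization, 5 by the mean of the probe sets and 1 to 6 with each animal left out (1 without 36, 6 without 33). With the animal number as a replicate block they gave 2, and for AMG A 0. Of 18 single calls, 4 ended under quantile normalization, 2 with the leading probe set, 1 with the mean of the probe sets and 0 without a trend. All 14 dose calls ended with only the groups compared (fewer arrays, adjusted p from 0.0938 to 0.596), a setting not run for tissue differences. No call reversed. Other causes were not tested. A difference that missed the threshold is not shown to be absent with 4 animals a group, and scores hide how bright a probe set was.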
